A study of Populus tremula x Populus alba with 64 samples.

Results

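Gene expression in roots was compared with that in stems of AE-plants, the young poplars whose leaves had been sprayed with an auxin enhancer (AE), at day 11. The comparison used 11 of the 64 libraries of the study, namely AE root replicates 1 to 6 and AE stem replicates 1, 3, 4, 5 and 6, which were chosen by their labels and by a depth of at least 1000000 counts. All plants were cuttings of the hybrid clone INRA 717-1B4 (Populus tremula × Populus alba), so every library came from a single genotype, and all cuttings had been given rooting powder at the stem base before potting. The AE spray held 3 µM naphthalene acetic acid (NAA) and 4.5 µM indole-3-butyric acid (IBA), both auxins, in 1 N KOH, and the control-AE plants were sprayed with the KOH alone. The root and stem samples were ground whole, so that each library is a mixture of all cell types of that organ. Polyadenylated RNA was sequenced, and the files hold read counts per gene model.

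Roots take up water and mineral nutrients through transporters and aquaporins, and their endodermis seals the vascular cylinder with lignin and suberin. The green stem carries chloroplasts in its outer layers, a waxy epidermis, a bark in which poplars store nitrogen as protein, and wood with thick lignified walls. Auxin made in shoots travels downwards through the stem and takes part in lateral root formation and in wood formation.

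The AE roots had 14701524 to 19179864 counts per library and the AE stems 3947526 to 12411418. AE stem 5 stood apart from the other stems. It was the shallowest library, 22.1% of its counts fell on 20 rows of a ribosomal RNA family (RFAM:RF02543) against at most 0.246% in the other 10 libraries, and 27131 rows had a count in it against 32317 to 33461 in the other stems. These rows were dropped before library sizes were set, and the counts of calls over all rows and per list were repeated without AE stem 5, with the list counts given where they changed. The mean share of ribosomal RNA was 0.155% ± 0.061 (SD, n = 6) in roots and 4.52% ± 9.82 (SD, n = 5) in stems, a root minus stem difference of -4.36 percentage points that did not pass a two-sided exact permutation test (p = 0.706, where 0.00433 was the smallest possible). Without AE stem 5 the difference was 0.0278 percentage points (exact permutation p = 0.457). The first principal component of log2 CPM (counts per 1000000 of a library) held 76.4% of the variance and separated the tissues, with the roots at 70.7 to 102 and the stems at -107 to -94.9, and each library was closer in correlation to its own tissue, AE stem 5 included.

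Roots and stems of AE-plants differed in a large part of the expressed genes. Of 24353 rows tested (23265 gene identifiers), 12178 were called at an adjusted p under 0.05, which is 50.0% of those tested. Roots were higher in 6164 rows (25.3%) and lower in 6014 (24.7%), and the median log2 fold change (root minus stem) over all rows was 0.01. A log2 fold change of at least 1 in size was reached by 6104 of the called rows (25.1% of those tested), 3143 higher and 2961 lower in root, and one of at least 4 by 508 and 514 rows. In 8298 rows (34.1%) the 2 tissues did not overlap, with every root above every stem in 4279 (17.6%) and every stem above every root in 4019 (16.5%). Without AE stem 5 the test called 13177 rows. Since whole organs were sampled, fewer cells of a type cannot be told apart from less RNA per cell. The labels do not say that the replicates were separate plants, and the p-values measure the spread between these libraries.

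Product names were known for 1659 of the tested rows, of which 1059 were called, 494 higher and 565 lower in root. The names came from a supplementary table of the study that is ordered by a test of AE roots against control-AE roots, so the named rows are not a random sample of the transcriptome, and 63.8% of them were called against 49.0% of the rows with no name. They were sorted into 20 lists by product name, each given by its counts and its median beside the values over all rows above. Since the lists are drawn from the named rows, their counts are also to be set beside those of the named rows. Values are CPM after TMM scaling, they are compared only within a gene, and ± after a fold change is its standard error.

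**Figure D1:**
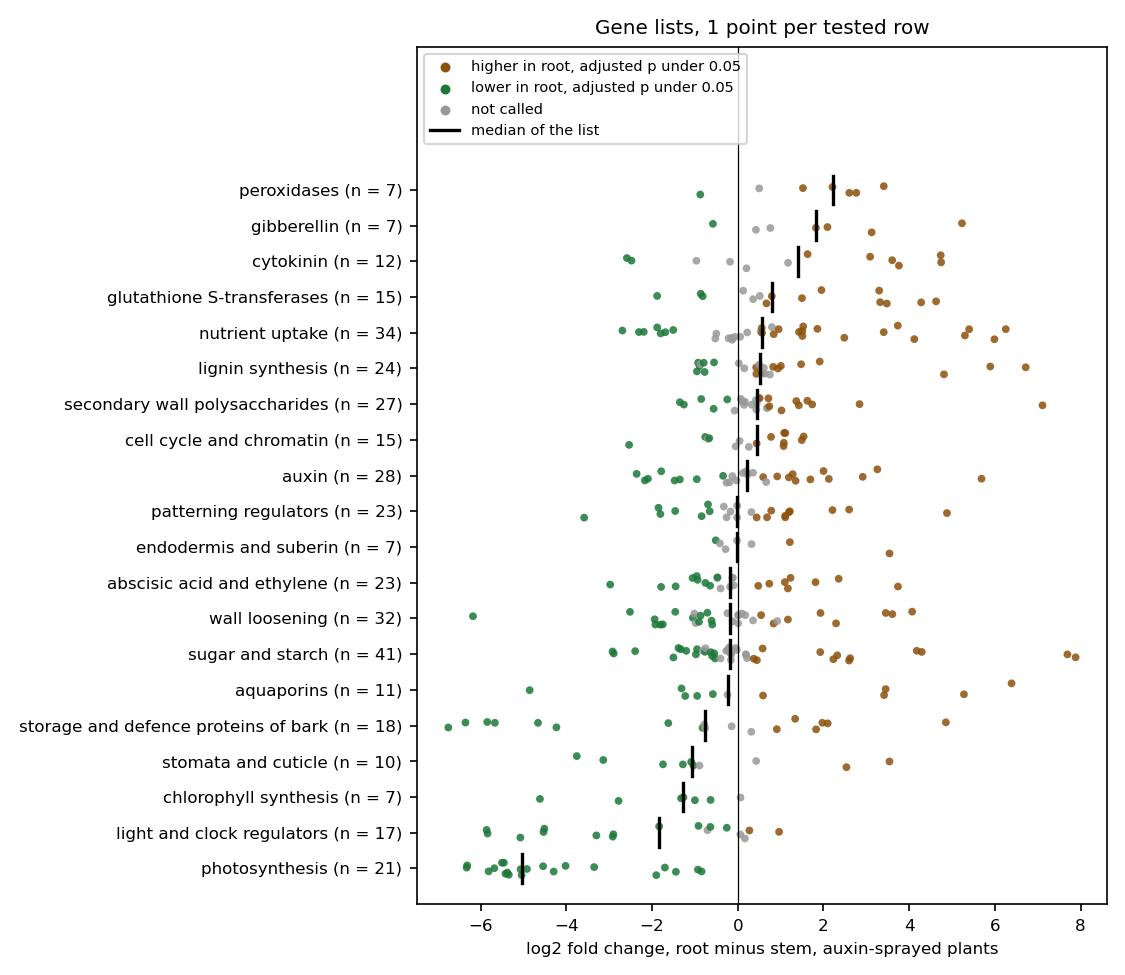
Log2 fold change (root minus stem, AE-plants, horizontal axis) of each tested row in 20 lists of named genes, with 1 point per row, a black line for the list's median, and n for the rows tested. All 21 photosynthesis rows lie to the left of 0 with a median of -5.04, while the medians of peroxidases and gibberellin genes are 2.21 and 1.83.

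The photosynthetic machinery was lower in roots throughout. All 21 tested rows for light harvesting, photosystems and the Calvin cycle were called lower in root (median -5.04), every stem library lay above every root library in each of them, and their summed level was 109 to 249 CPM in roots and 2145 to 4356 CPM in stems. The chlorophyll a-b binding protein of LHCII type 1 (gene 7493971), a light-harvesting antenna protein, had 1.19, 3.69 and 13.3 CPM as the lowest, median and highest root value, and 447, 639.9, 371, 275 and 288 CPM in stems 1, 3, 4, 5 and 6. This gave a log2 fold change of -6.33 ± 0.52 (adjusted p = 4.9e-07), which was -6.95 without root 5. Photosystem I subunit III (7477808) fell from 185 to 330 CPM in stems to 0.816 to 7.15 CPM in roots (-6.31 ± 0.44), and CP12-1 (7481401), a small regulator of the Calvin cycle, from 85.1 to 181 CPM to 0.892 to 4.04 CPM (-5.81 ± 0.35). The smallest difference in the list was that of a light-harvesting complex-like protein (7468765) at -0.84 ± 0.12. The roots were therefore low but not at 0 for the markers of green tissue.

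Chlorophyll synthesis followed, with 6 of 7 tested rows lower in root, none higher and a median of -1.27. Protochlorophyllide reductase (7497381), which carries out the light-dependent reduction in chlorophyll formation, had 1.84, 3.70 and 5.11 CPM in roots (lowest, median, highest) and 103, 118, 87.1, 60.5 and 70.8 CPM in the 5 stems (-4.61 ± 0.24, adjusted p = 1.3e-08). The early steps of the pathway also lead to haem, and these differed less between the tissues. Glutamyl-tRNA reductase 1 (7461831) was at 32.8 to 36.0 CPM in roots and 62.2 to 111 CPM in stems (-1.32 ± 0.14), and glutamate-1-semialdehyde aminomutase (7456623) at 49.3 to 56.5 and 68.0 to 101 CPM (-0.63 ± 0.10).

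Regulators that respond to light were also mostly lower in roots. In the list of light and clock regulators, 12 of 17 rows were lower in root and 2 higher (median -1.83), and 13 and 2 without AE stem 5. Zinc finger protein CONSTANS-LIKE 4 (7489168), of a family of light-responsive transcription factors, had 2.93, 3.32 and 5.28 CPM in roots and 225, 249.7, 201, 200.4 and 161 CPM in stems, with no overlap (-5.86 ± 0.18, adjusted p = 3.4e-10). The blue-light receptor phototropin-1 (7467655) had 1.41, 2.70 and 4.16 CPM in roots and 179.7, 168, 152, 88.6 and 197 CPM in stems (-5.84 ± 0.32). CONSTANS-LIKE 2 (18107444) was lower by -5.07 ± 0.26. The exceptions were a clock-related MYB protein, REVEILLE 7 (7485192), at 62.6 to 87.5 CPM in roots and 30.9 to 42.1 CPM in stems (0.97 ± 0.11), and a copy of the ultraviolet-B receptor UVR8 (18107392), whose groups overlapped (0.27 ± 0.08, adjusted p = 0.011). The UVR8 call was lost with the replicate block, in the joint fit with the control-AE libraries and with counts thinned to the depth of the lowest library, and each of these left 1 row of the list higher in root. A further UVR8 row (18097310) went the other way at -0.25 ± 0.08.

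Genes of the waxy shoot surface were split. Of 10 tested rows for stomata and cuticle, 6 were lower and 2 higher in root (median -1.06). The count of lower rows was 4 without any of stems 1, 4 and 5 or of roots 1, 2, 5 and 6, and 7 without stem 6. Stem 6 stood apart in the summed level of the list, with 347 CPM against 1201 to 1633 CPM in the other stems and 627 to 955 CPM in roots. The 3 named rows that were lower in root belong to wax synthesis. The fatty acid elongase 3-ketoacyl-CoA synthase 6 (7489345) had 1.84, 3.07 and 5.07 CPM in roots and 41.3, 38.2, 47.0, 30.4 and 59.3 CPM in stems (-3.75 ± 0.26, adjusted p = 9.8e-08). The wax ester synthase WSD1 (7469553) gave -3.14 ± 0.22, and ECERIFERUM 3 (7461618), which acts in alkane formation in Arabidopsis, gave -1.74 ± 0.36 with overlapping groups. The rows higher in root were an alcohol-forming fatty acyl-CoA reductase (7479041), an enzyme type that makes fatty alcohols for waxes and, in Arabidopsis, for suberin, and GDSL esterase/lipase 5 (7483573). The reductase had 26.9, 30.3 and 55.6 CPM in roots and 1.75, 3.41, 2.35, 0.684 and 5.16 CPM in stems (3.54 ± 0.33). The GDSL row had 54.9 to 86.2 CPM in roots and 9.60 to 15.2 CPM in stems (2.54 ± 0.15).

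Transporters of mineral nutrients were more often higher in root. Of 34 tested rows, 17 were higher and 7 lower in root (median 0.56), with the same counts without AE stem 5. Metal transporter Nramp5 (18096211), named after a rice protein that takes up manganese, had 42.7, 58.4 and 92.5 CPM in roots and 0.701, 0.768, 0.534, 1.03 and 1.03 CPM in stems. The root values were all above the stem values, by a log2 fold change of 6.26 ± 0.27 (adjusted p = 4.1e-09). Potassium transporter 5 was higher in root in the rows of 2 genes (7482833, 3.74 ± 0.36, and 18094543, 3.41 ± 0.32), and another gene of that name (7491314) was not called at 0.53 ± 0.23. Metal tolerance protein 10 (18102654), of a family of metal exporters, had 47.8 to 63.3 CPM in roots and 2.62 to 4.16 CPM in stems (4.12 ± 0.13).

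The NRT1/PTR family, whose members carry nitrate, peptides or hormones, held rows of both directions. Protein NRT1/PTR FAMILY 5.2 (7459553) had 36.4, 57.6 and 89.8 CPM in roots and 1.23, 1.02, 1.39, 1.37 and 1.90 CPM in stems (5.40 ± 0.26, adjusted p = 8.9e-09). A gene named NRT1/PTR FAMILY 1.2 (18107474) had 7.82, 9.45 and 14.3 CPM in roots against 0.263, 0.0853, 0.320, 0 and 0 CPM in stems (5.99 ± 0.40). A different gene with that name (7470568) was instead high in stems, at 179, 183, 246, 162 and 176 CPM, against 31.0, 37.7 and 44.5 CPM in roots (-2.31 ± 0.12, adjusted p = 1.6e-08). FAMILY 5.4 (18097184) and 3.1 (7466903) were lower in root as well, at -1.88 ± 0.25 and -1.50 ± 0.24. Among carriers of metals, a vacuolar iron transporter homolog 2 (7492461, -2.69 ± 0.32) and the metal-nicotianamine transporter YSL3 (7464319, -2.19 ± 0.27) were lower in root. All 3 ammonium transporter rows were higher in root, the rows of 18110376, 7465913 and 18107974 by 0.96 ± 0.18, 1.43 ± 0.25 and 1.51 ± 0.32.

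Aquaporins, the membrane channels for water, divided evenly. Of 11 tested rows, 5 were higher and 5 lower in root (median -0.24), and the summed level was 2502 to 3517 CPM in roots and 1631 to 2920 CPM in stems. A TIP-type aquaporin (18094614), of the group found in vacuolar membranes, had 164, 291 and 383 CPM in roots and 2.80, 2.05, 2.99, 5.47 and 4.05 CPM in stems (6.39 ± 0.33, adjusted p = 1.3e-08). The PIP aquaporins sit in the plasma membrane. PIP2-4 (7491133) had 328, 380.4 and 489 CPM in roots and 7.01, 9.64, 11.0, 16.8 and 8.41 CPM in stems (5.28 ± 0.21). PIP2-2 (18100192) was higher in root by 3.42 ± 0.20. The name PIP1-2 covered 2 genes with opposite differences, 7490340 at 870.1 to 1258 CPM in roots and 84.2 to 98.5 CPM in stems (3.45 ± 0.12), and 7488009 at 357 to 558 CPM in roots and 747 to 959 CPM in stems (-0.95 ± 0.13). PIP1-4 (7487304) was the aquaporin row with the lowest root to stem ratio, at 0.357, 0.443 and 2.67 CPM in roots and 18.7, 16.5, 21.5, 47.2 and 20.9 CPM in stems (-4.85 ± 0.50, and -5.69 without root 3, which held the highest root value). PIP2-8 (7494236) and TIP2-1 (7470570) were lower in root by -1.22 ± 0.22 and -1.31 ± 0.37, the latter with overlapping groups because stem 6 had 42.9 CPM where the other stems had 141 to 256 CPM. The call for TIP2-1 was lost with the replicate block. Copies of such families are alike in sequence, and how the counting divided reads between them was not tested.

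**Figure D2:**
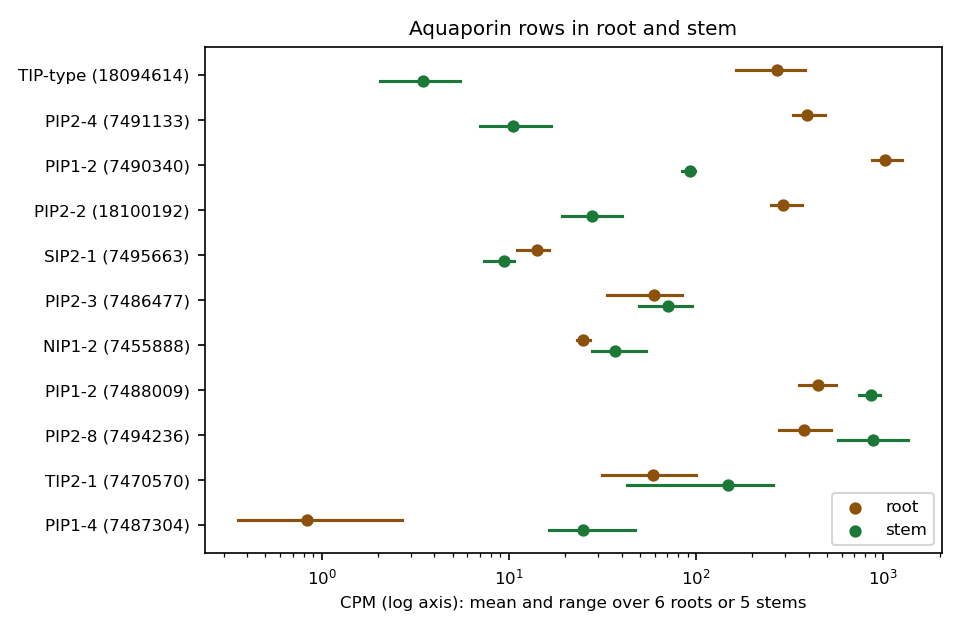
CPM (horizontal log axis) of the 11 tested aquaporin rows in AE-plants, with a point for the mean and a bar for the range over 6 root and 5 stem libraries. Root and stem ranges lie apart for the TIP-type row, PIP2-4, PIP2-2 and PIP1-4, and the 2 PIP1-2 genes lie on opposite sides.

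Few genes of the endodermis had a product name. Of 7 tested rows, 2 were higher and 1 lower in root (median -0.02). Transcription factor MYB36 (18100523), which in Arabidopsis switches on the genes for the Casparian strip, had 10.6, 12.3 and 15.3 CPM in roots and 0.876, 0.853, 0.854, 0.342 and 1.98 CPM in stems (3.54 ± 0.26, adjusted p = 1.9e-07). SHORT-ROOT (18103745), which specifies the endodermis in Arabidopsis, had 96.3, 108 and 122 CPM in roots and 51.1, 50.7, 55.4, 38.6 and 36.9 CPM in stems (1.22 ± 0.12, adjusted p = 2.7e-06). Both regulators were higher in every root than in any stem, while the suberin-linked regulator MYB93 (7486598) was not called (-0.02 ± 0.20), nor were a CASP-like protein 2B1 (7453677, -0.28 ± 0.15) and dirigent protein 11 (7480455, 0.32 ± 0.26). The row lower in root was CASP-like protein 4A3 (7457730), at 24.3 to 29.8 CPM in roots and 31.5 to 47.3 CPM in stems (-0.51 ± 0.11, adjusted p = 0.0016).

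Class III peroxidases, the secreted enzymes that cross-link wall polymers, were mostly higher in root. Of 7 rows, 5 were higher and 1 lower in root (median 2.21), and the summed level was 235 to 334 CPM in roots and 87.5 to 106 CPM in stems. Peroxidase 2 (7482222) had 41.0, 45.3 and 52.7 CPM in roots and 1.93, 5.71, 2.99, 3.76 and 6.82 CPM in stems (3.41 ± 0.26, adjusted p = 2.5e-07). Peroxidase 20 (18094201) and peroxidase A2 (18106167) were higher by 2.77 ± 0.18 and 2.60 ± 0.23. Peroxidase 3 (18106988) was the row lower in root (-0.87 ± 0.14), at 15.2 to 22.8 CPM in roots and 27.5 to 42.4 CPM in stems.

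Genes of lignin synthesis, a process known from wood, held rows of both directions. Of 24 tested rows, 11 were higher and 6 lower in root (median 0.53), with 3 lower in the joint fit with the control-AE libraries, and the summed level was 4217 to 5439 CPM in roots and 2689 to 3549 CPM in stems. Among the rows higher in root were trans-cinnamate 4-monooxygenase (7464737, 0.94 ± 0.13) and shikimate O-hydroxycinnamoyltransferase (7465572, 1.01 ± 0.18), which act upstream of cinnamoyl-CoA reductase. Cinnamoyl-CoA reductase 1 had a gene higher (7493223, 0.43 ± 0.12) and a gene lower in root (7474550, -0.55 ± 0.16). Cytochrome P450 84A1, the ferulate 5-hydroxylase that leads to syringyl lignin, was not called in either gene (7480159, 0.03 ± 0.14, and 18099227, 0.15 ± 0.18).

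Laccases oxidise the lignin monomers in the wall, and their rows differed in direction. Laccase-7 (18106235) had 24.4, 34.2 and 45.8 CPM in roots and 0.438, 0.512, 0.213, 0.342 and 1.11 CPM in stems (5.89 ± 0.33, adjusted p = 2.1e-08). Another laccase-7 gene (18106290) had 7.37, 10.2 and 14.3 CPM in roots and 0, 0.597, 0.213, 0 and 0.714 CPM in stems (4.81 ± 0.45), and the remaining one (18110523) gave 6.72 ± 0.65. Laccase-4 (7478550) was higher in root by 1.91 ± 0.16, at 108 to 175 CPM against 28.5 to 44.5 CPM. Of the 5 genes named laccase-17, 3 were lower in root, with 7462337, 7460825 and 18095594 at -0.95 ± 0.16, -0.89 ± 0.16 and -0.77 ± 0.16, while 18095593 was not called (-0.87 ± 0.35) and 7482778 was higher in root (1.48 ± 0.47). None of the 4 laccase-14 genes was called. A cinnamyl alcohol dehydrogenase 9 (7465014) was lower in root only narrowly (-0.92 ± 0.36, adjusted p = 0.047), and the call was lost when any of stems 1, 4 or 5 or of roots 1 to 5 was left out (adjusted p 0.055 to 0.13).

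Polysaccharide genes of the secondary wall showed a similar split. Of 27 rows, 10 were higher and 5 lower in root (median 0.44), with 11 and 5 without AE stem 5. COBRA-like protein 4 (18105768), needed for cellulose deposition in secondary walls of Arabidopsis, had 31.6, 63.0 and 123 CPM in roots and 0.350, 0.426, 0.640, 0 and 0.635 CPM in stems (7.11 ± 0.51, adjusted p = 1.4e-07). Its model overlaps that of another gene, so reads of the 2 may have been mixed. Fasciclin-like arabinogalactan protein 2 (7469331), a wall glycoprotein, had 399, 661 and 1100.2 CPM in roots and 90.4, 110.1, 101, 81.7 and 94.9 CPM in stems (2.84 ± 0.26). ESKIMO 1, which acetylates xylan in Arabidopsis, had a gene higher in root (7474426, 1.37 ± 0.16) and a gene lower in root (7494505, -0.85 ± 0.11). The transcription factor NAC104 (7479142), whose Arabidopsis counterpart restrains vessel differentiation, was lower in root at 2.85, 4.61 and 7.13 CPM against 11.2, 12.9, 12.3, 10.6 and 14.1 CPM in stems (-1.35 ± 0.20).

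Enzymes that loosen or remodel the primary wall went both ways, with 8 of 32 rows higher and 13 lower in root (median -0.18), and 8 and 12 without AE stem 5. The split of this list is not far from that of all named rows. The median lay between -0.54 (without root 2) and -0.16 with a library left out, and was -0.58 with the replicate block. A xyloglucan endotransglucosylase/hydrolase (XTH, 7465538), of the enzymes that cut and rejoin xyloglucan chains, had 5.05, 6.48 and 13.8 CPM in roots and 501, 643, 634, 513 and 546 CPM in stems. The stems were high without exception (-6.18 ± 0.25, adjusted p = 3.1e-09). Pectinesterase inhibitor 7 (7482899) was lower in root by -2.51 ± 0.30, with stem 6 at 47.8 CPM below the other stems at 113 to 203 CPM. On the root side, leucine-rich repeat extensin-like protein 6 (7498063), a wall-anchored protein, had 71.2, 83.6 and 99.9 CPM in roots and 2.89, 6.23, 3.63, 3.42 and 8.17 CPM in stems (4.07 ± 0.24). Endoglucanase 12 (7460657) had 144 to 248 CPM in roots and 9.11 to 28.7 CPM in stems (3.45 ± 0.32). Putative expansin-A17 (7478823) was higher in root by 2.30 ± 0.48, and stem 3 was its highest stem at 13.0 CPM, below every root. Without stem 3 the value was 2.92. The polygalacturonase 7459926, a pectin-degrading enzyme matched by product name to the one in the study, did not differ beyond the spread (0.01 ± 0.60, adjusted p = 0.99). Its roots held 1.43, 2.72 and 10.7 CPM and its stems 2.80, 8.53, 1.39, 2.74 and 6.27 CPM.

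Bark storage proteins, the nitrogen stores of poplar bark, were among the genes with the lowest root to stem ratios, with large spread between stems. In the list of storage and defence proteins, 6 of 18 rows were higher and 8 lower in root (median -0.77), and 5 and 8 without AE stem 5. The median was -0.30 without stem 1 and at most -0.64 without any other library, and the joint fit with the control-AE libraries had 3 rows higher. Bark storage protein A (18104338) had 1.36, 4.63 and 10.3 CPM in roots and 251, 1325, 209, 243 and 13.8 CPM in stems 1, 3, 4, 5 and 6 (-6.35 ± 0.94, adjusted p = 8.9e-05). A neighbouring identifier with the same name (18104339) had 0.297, 1.29 and 2.97 CPM in roots and 88.8, 486, 85.2, 113 and 5.63 CPM in stems (-6.75 ± 0.93). Bark storage protein B (18104336) had 0.713, 3.07 and 7.79 CPM in roots and 126, 626, 133, 181 and 16.0 CPM in stems (-5.84 ± 0.85). In all 3 genes stem 3 was the highest stem and stem 6 the lowest, and stem 6 was still above every root. With each library left out in turn, the log2 fold change of 18104338 lay between -6.72 and -5.15, the latter without stem 3. The copy 7469845 was lower in root by -5.67 ± 0.90. The copy 18100426 was slightly higher in root, at 9.79 to 14.6 CPM against 5.12 to 8.58 CPM (0.91 ± 0.16). These copies may share reads, and their separate values are uncertain.

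**Figure D3:**
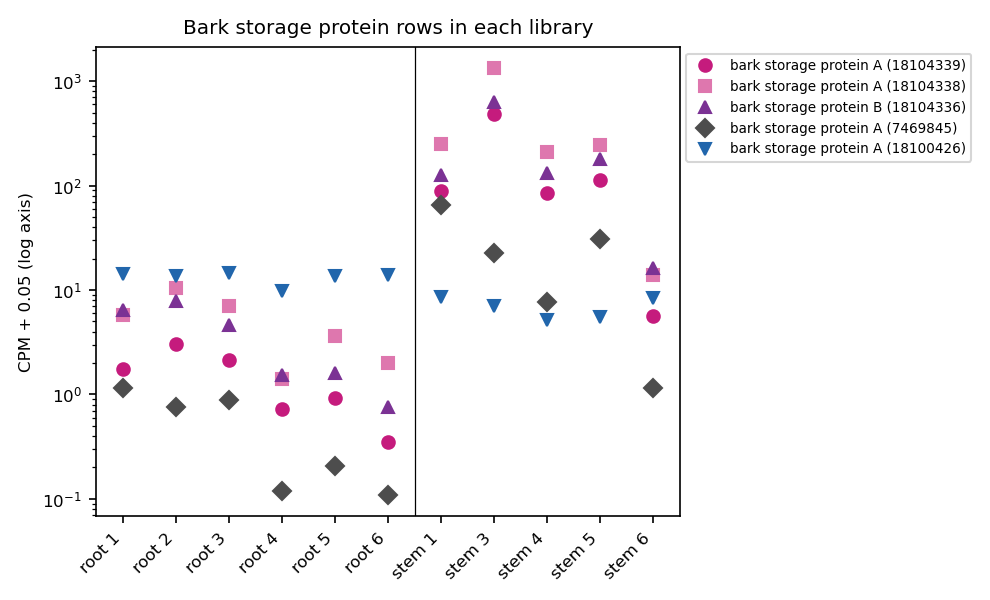
CPM (vertical log axis) of 5 bark storage protein genes in each AE root and AE stem library. In genes 18104339, 18104338 and 18104336 stem 3 is the highest and stem 6 the lowest of the stems, and gene 18100426 varies little between libraries.

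The other 5 rows of that list called higher in root were of protease inhibitors and the wound-responsive protein GWIN3. Kunitz-type elastase inhibitor BrEI (7467450) had 72.7, 80.4 and 95.7 CPM in roots and 21.0, 21.4, 32.1, 16.8 and 3.89 CPM in stems (2.10 ± 0.36, adjusted p = 0.00027). Kunitz trypsin inhibitor 2 (7494372) was higher by 1.34 ± 0.27, a call that was lost in the joint fit, and all 3 GWIN3 rows were higher in root but low in counts. Of the 4 rows named stem-specific protein TSJT1, 3 were lower in root (7462344, 18095611 and 7456810 at -4.23 ± 0.27, -1.62 ± 0.33 and -0.82 ± 0.24) and 18102998 was not called (-0.78 ± 0.54). A miraculin row (18108093), of the same inhibitor superfamily as the Kunitz proteins, was lower in root by -4.66 ± 0.98.

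Auxin genes moved in both directions, with 11 of 28 rows higher and 8 lower in root (median 0.21), and 12 and 8 without AE stem 5. This split is not far from that of all named rows, with 494 of 1659 higher and 565 lower in root. The auxin genes with the highest root to stem ratios act on auxin metabolism. IAA-amino acid hydrolase ILR1 (7492233), which frees auxin from its conjugates, had 28.4, 31.9 and 39.1 CPM in roots and 0.788, 0.853, 0, 1.37 and 0.555 CPM in stems (5.69 ± 0.34, adjusted p = 3.8e-08). The dioxygenase DAO (7489058), of the enzymes that oxidise auxin, had 4.55, 7.49 and 27.8 CPM in roots and 0.438, 2.22, 0.747, 0.684 and 1.35 CPM in stems (3.26 ± 0.59). Of the genes for the amido synthetases that conjugate auxin (GH3), 7469610 was higher in root (2.13 ± 0.38), 7497419 lower (-1.47 ± 0.29) and 18101160 not called (0.67 ± 0.64). A flavin monooxygenase of auxin synthesis (18111290) was higher by 1.70 ± 0.20.

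Auxin carriers and response genes also differed by member. Auxin efflux carrier component 3 (7488396) had 27.3, 29.1 and 29.9 CPM in roots and 121, 73.7, 121, 105 and 78.9 CPM in stems (-1.78 ± 0.13, adjusted p = 1.8e-07), so that every stem was above every root. Another efflux carrier row (7492445) was higher in root by 1.35 ± 0.21. The repressor-like protein IAA33 (7488970) was higher in root by 2.92 ± 0.39, IAA16 (7474609) was lower by -0.34 ± 0.09, and auxin response factor 6 (7464667) was lower by -0.95 ± 0.08. The auxin-repressed 12.5 kDa protein (7456781) had 81.7, 137 and 228 CPM in roots and 690.1, 977, 626, 571 and 805 CPM in stems (-2.36 ± 0.25). BIG GRAIN 1-like B (7490951), named after a rice protein linked to auxin transport, was lower in root by -2.17 ± 0.18. The receptor gene row for transport inhibitor response 1 (7486562) was not called (0.20 ± 0.08).

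Cytokinin and gibberellin genes were more often higher in root. Of 12 cytokinin rows, 6 were higher and 2 lower (median 1.40), and of 7 gibberellin rows, 4 were higher and 1 lower (median 1.83). The LOG enzymes release active cytokinins from their ribotides. LOG gene 7477665 had 35.0, 39.4 and 49.6 CPM in roots and 2.01, 1.36, 1.39, 1.71 and 1.19 CPM in stems (4.74 ± 0.16, adjusted p = 6.8e-10), gene 7483248 was higher by 3.76 ± 0.19, and gene 7494678 was lower by -2.59 ± 0.38. The degrading enzyme cytokinin dehydrogenase 5 (7479715) was higher in root too (3.61 ± 0.34), at 10.9 to 17.6 CPM against 0 to 2.30 CPM. Zeatin O-glucosyltransferase (7496123), which stores cytokinin as a glucoside, had 1.07, 1.19 and 1.86 CPM in roots and 24.0, 2.47, 3.52, 0.684 and 4.52 CPM in stems (-2.48 ± 0.62). Stem 1 carried much of that value, and without it the log2 fold change was -1.20 (adjusted p = 0.0093). DELLA protein GAIP-B (7491727), a repressor of gibberellin responses, had 83.6, 87.6 and 95.8 CPM in roots and 7.10, 12.8, 8.32, 8.89 and 13.2 CPM in stems (3.13 ± 0.16, adjusted p = 1.2e-08). Gibberellin 20 oxidase 1 (7454460), of the synthesis pathway, was higher by 2.09 ± 0.26, and the inactivating gibberellin 2-beta-dioxygenase 1 (7488027) was lower by -0.58 ± 0.16, with overlapping groups and a call that was lost with thinned counts.

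In the list for abscisic acid and ethylene, 8 of 23 rows were higher and 9 lower in root (median -0.18, and -0.34 without stem 3), with 8 and 11 without AE stem 5. The split of 8 and 9 is near that of all named rows. The last step of ethylene synthesis is carried out by 1-aminocyclopropane-1-carboxylate (ACC) oxidase. Its gene 7484327 had 7.90, 19.4 and 44.5 CPM in roots and 111, 206, 118, 160.0 and 255 CPM in stems (-2.98 ± 0.39, adjusted p = 3.4e-05). A gene named ACC oxidase homolog 1 (7479980) was higher in root, at 63.8, 89.1 and 122 CPM in roots and 6.57, 4.95, 5.55, 8.89 and 8.49 CPM in stems (3.74 ± 0.20, adjusted p = 1.6e-08). Whether this homolog acts in ethylene synthesis was not tested. For abscisic acid, the receptor PYR1 (18094169) was higher in root (1.23 ± 0.15) and the phosphatase 2C 24 (7481518) lower (-1.45 ± 0.09), the latter at 19.2 to 23.1 CPM in roots and 52.2 to 66.7 CPM in stems. The transcription factor ERF034 (18105142) was higher in root by 2.36 ± 0.19.

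Sugar transport and starch genes, the carbon economy that the study set out to follow, were divided, with 12 of 41 rows higher and 14 lower in root (median -0.19), and 12 and 17 without AE stem 5. The split of 12 and 14 is near that of all named rows, with 494 of 1659 higher and 565 lower in root. The sugar transporter SWEET3 (18105510) had 7.07, 12.9 and 13.9 CPM in roots and 0, 0, 0, 0 and 0.159 CPM in stems. Its stems together held 2 counts against 1219 in roots, a ratio of 288 after scaling with a 95% counting interval of 79.7 to 2384. That interval pools the reads of each tissue and leaves out the spread between libraries. The edgeR test on the libraries gave a log2 fold change of 7.89 ± 0.46 (adjusted p = 2.8e-08). Sugar carrier protein A had a gene higher in root (7470032, 4.29 ± 0.40) and a gene lower in root (7455661, -1.20 ± 0.11). Sucrose transport protein SUC8 (7467435), of the carriers that load sucrose into cells, had 24.2, 26.9 and 29.8 CPM in roots and 200.1, 196, 155, 145 and 310.3 CPM in stems (-2.89 ± 0.17, adjusted p = 3.8e-08).

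Enzymes of carbohydrate breakdown and sugar alcohols added to that split. A beta-amylase (18107014), which degrades starch, had 3.78, 6.01 and 9.73 CPM in roots and 59.5, 86.4, 40.1, 25.3 and 24.1 CPM in stems (-2.92 ± 0.35). The study also names a beta-amylase, matched here by product name to beta-amylase 1 (7494763). This gene was not called (-0.04 ± 0.14, adjusted p = 0.83), with 25 to 33.4 CPM in roots and 21.5 to 38 CPM in stems. Trehalose-phosphate phosphatase J (7490222) was lower in root by -2.39 ± 0.20, at 5.96 to 10.7 CPM against 22.6 to 48.5 CPM. Probable mannitol dehydrogenase was higher in root in the rows of 7475058 (2.62 ± 0.34 and 2.23 ± 0.24) and 7475061 (2.32 ± 0.22), and 7475057 was not called (-0.19 ± 0.13). Fructokinase-1 (7479988), which phosphorylates fructose, was higher by 2.60 ± 0.17. Sucrose synthase (18100284) had 4 tested rows between -0.55 ± 0.19 and 0.19 ± 0.13.

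Cell cycle and chromatin genes went both ways. Of 15 rows, 8 were higher and 3 lower in root (median 0.44), while the summed level was lower in root, at 638 to 868 CPM against 1355 to 1740 CPM in stems. The stem sums consisted largely of histone H1 (18099218), a linker histone, with 85.2, 195 and 254 CPM in roots and 911, 1172, 989, 854 and 1233 CPM in stems (-2.53 ± 0.24, adjusted p = 1.4e-06). In DNA replication, the helicase subunit MCM7 (7491255) had 48.5, 61.4 and 65.8 CPM in roots and 29.9, 28.7, 33.6, 31.1 and 18.2 CPM in stems (1.08 ± 0.15), and the sliding clamp PCNA (7481501) was at 32.6 to 37 CPM in roots and 13.0 to 20.5 CPM in stems (1.07 ± 0.11). Chromatin assembly factor 1 subunit A (7496633), which places histones on newly copied DNA, had a row lower in root (-0.66 ± 0.17, adjusted p = 0.0053) and a row that was not called (-0.69 ± 0.35). Kinesin-like protein KIN-10B (7487255) was higher by 1.49 ± 0.12. The cell cycle inhibitor SMR6 had a gene higher in root (7461311, 1.11 ± 0.29) and a gene lower in root (7460759, -0.76 ± 0.14).

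Regulators of organ patterning had 10 of 23 rows higher and 7 lower in root, with a median of -0.01 that was 0.39 without AE stem 5. BBM2 (7464602), of the AP2-like group that includes the root meristem regulators of Arabidopsis, had 25.6, 30.5 and 42.3 CPM in roots and 0.263, 3.07, 0.213, 0 and 0.952 CPM in stems (4.88 ± 0.50, adjusted p = 3.6e-06). Stem 3 held the highest stem value, still below every root, and without it the log2 fold change was 6.09. Scarecrow-like protein 33 was higher in root in the rows of 2 genes (7488108, 2.60 ± 0.19, and 7485697, 1.11 ± 0.14), and KAN4 (18104963) by 2.21 ± 0.23. Homeobox protein SBH1 (7463625), of the KNOTTED-like group active in shoot meristems, had 0.535, 1.42 and 4.93 CPM in roots and 31.3, 17.5, 32.8, 20.5 and 7.14 CPM in stems (-3.58 ± 0.50, and -4.18 without root 3). LOB domain-containing protein 41 (18099497) was lower in root by -1.85 ± 0.11 and indeterminate-domain 5 (18101539) by -1.46 ± 0.17.

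Of 15 tested rows for glutathione S-transferases, which attach glutathione to foreign and reactive compounds, 9 were higher and 3 lower in root (median 0.80). The transferase 18109999 had 20.9, 28.0 and 31.1 CPM in roots and 0.876, 1.71, 1.07, 0.684 and 0.873 CPM in stems (4.63 ± 0.20, adjusted p = 4.9e-09), and U17 (18102327) was the member with the lowest ratio (-1.88 ± 0.27). Benzyl alcohol O-benzoyltransferase (7491394), which makes benzyl benzoate, had 61.0, 105 and 141 CPM in roots and 0.526, 0.341, 0.747, 0.342 and 0.793 CPM in stems (7.39 ± 0.34, adjusted p = 6.6e-09), and another gene of that name (18110648) gave 6.75 ± 0.38. Wall-associated receptor kinase-like 16 (18098024), RING-H2 finger protein ATL12 (7471530) and myb-related protein 315 (7456205) were higher in root by 5.89 ± 0.34, 5.98 ± 0.32 and 5.88 ± 0.30. The study names 3 AAA-ATPase genes by other identifiers. A match by product name among the first rows of its supplementary table gave 2 genes here, and these were higher in root. Gene 18097389 had 18.9, 21.7 and 24.6 CPM in roots and 1.84, 2.13, 1.39, 2.05 and 4.68 CPM in stems (3.10 ± 0.26), and 18109209, whose model overlaps another gene, gave 2.46 ± 0.24.

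**Figure D4:**
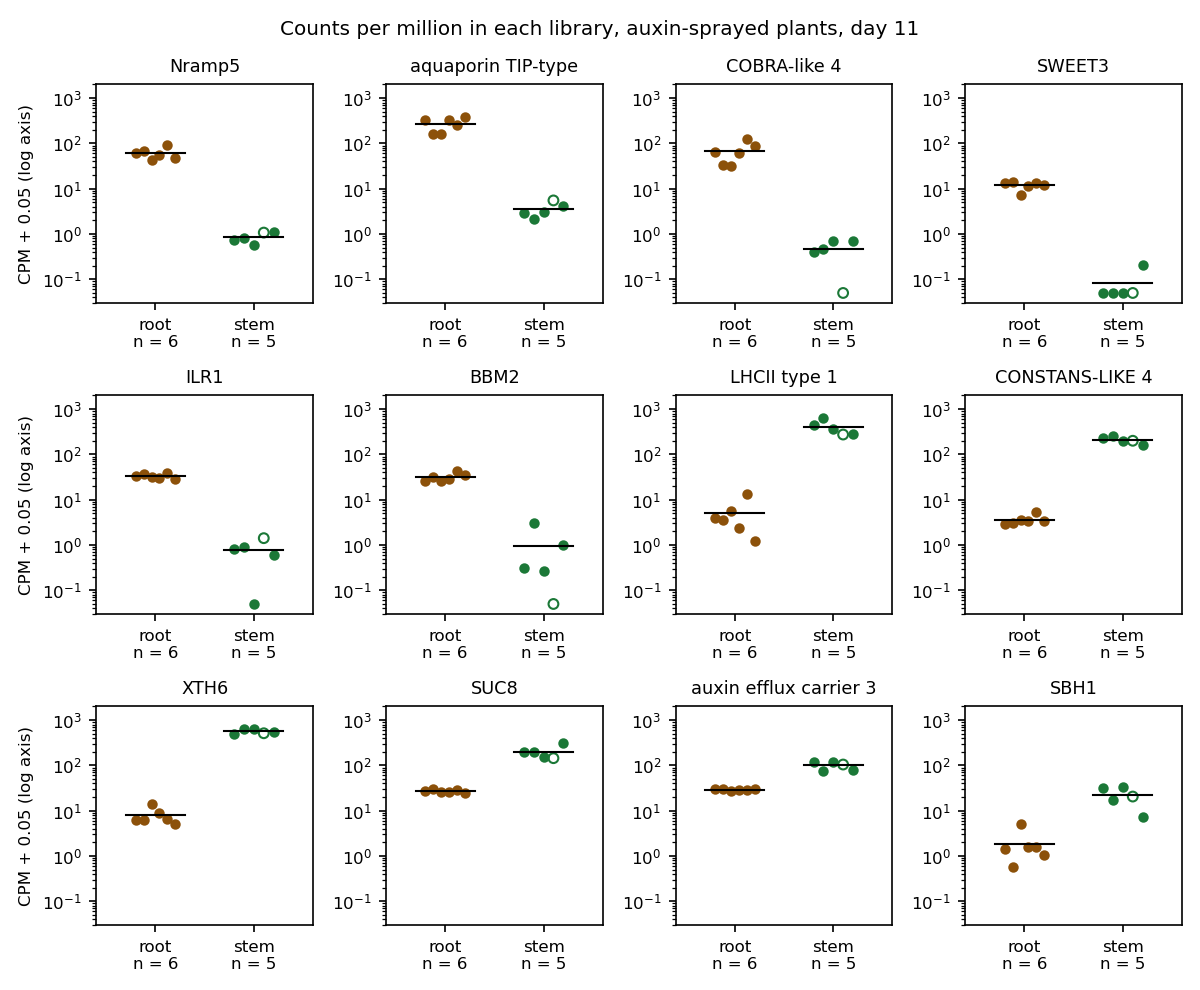
CPM + 0.05 (vertical log axis) of selected genes in each AE root (n = 6) and AE stem (n = 5) library, with 1 point per library, an open circle for AE stem 5 and a line at the group mean. The genes were picked after their values were seen, some of them by a rule that required groups without overlap. The root and stem points do not overlap in any of the 12 genes, against 34.1% of all tested rows. AE stem 5 lies outside the range of the other stems for the TIP-type aquaporin, COBRA-like protein 4, ILR1, BBM2, LHCII type 1 and SUC8.

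The root minus stem difference was also measured in the control-AE plants, in 3 roots (replicates 2, 4 and 5) and 3 stems (replicates 1, 2 and 4), none of which is shared with the AE comparison. The label of control-AE root replicate 2, with 7784687 counts, calls its depth low, and that of replicate 3, with 120199 counts, calls it acceptable, so these labels are the reverse of the counts, and libraries were taken by their counts. Of 24181 rows tested there, 7258 were called (30.0%), 3729 higher (15.4%) and 3529 lower in root (14.6%). Over the 23691 rows tested in both, 96.9% of the 11898 AE calls had the same sign in control-AE plants, and 6568 were called in both, of which 3 were in opposite directions. Those 6568 were 55.2% of the AE calls and 92.7% of the control calls. Across these rows, which are not independent replicates, the log2 fold changes of both comparisons had r = 0.93 and a slope of 0.99. In control-AE plants Nramp5 gave 6.59 against 6.26 in AE-plants, and PIP2-4 gave 6.34 against 5.28. LHCII type 1 gave -7.62 against -6.33, and XTH gene 7465538 gave -7.13 against -6.18. Other rows gave values of larger size in AE-plants. SWEET3 gave 5.53 in control-AE plants against 7.89, phototropin-1 -3.93 against -5.84, and NRT1/PTR FAMILY 1.2 gene 18107474 4.42 against 5.99. None of these differences was called in the edgeR interaction test below (adjusted p = 0.91 for each). The stem values of SWEET3 were near 0 in both treatments, and rows were often named for large changes in AE-plants. The photosynthesis list had a median of -4.02 in control-AE plants against -5.04. On the rows tested in both, some list medians changed sign and others kept it. Those that changed included storage and defence proteins (0.69 in control-AE plants against -0.80), aquaporins (0.63 against -0.24), wall loosening (0.27 against -0.18), and stomata and cuticle (0.06 against -1.06). These differences of medians were not tested. Control-AE root 5 was far above roots 2 and 4 in some rows high in stems. Phototropin-1 had 1.89, 2.35 and 22.4 CPM in roots 2, 4 and 5, and CP12-1 had 1.26, 0.441 and 16.7 CPM. Other rows did not follow, such as SBH1 at 6.04, 3.48 and 2.46 CPM. Without root 5 the control-AE comparison called 7895 rows. How far root 5 carried the smaller control-AE values was not tested. TIP2-1 had opposite signs, at 1.04 (not called) against -1.31. These rows and lists were picked after their values were seen.

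**Figure D5:**
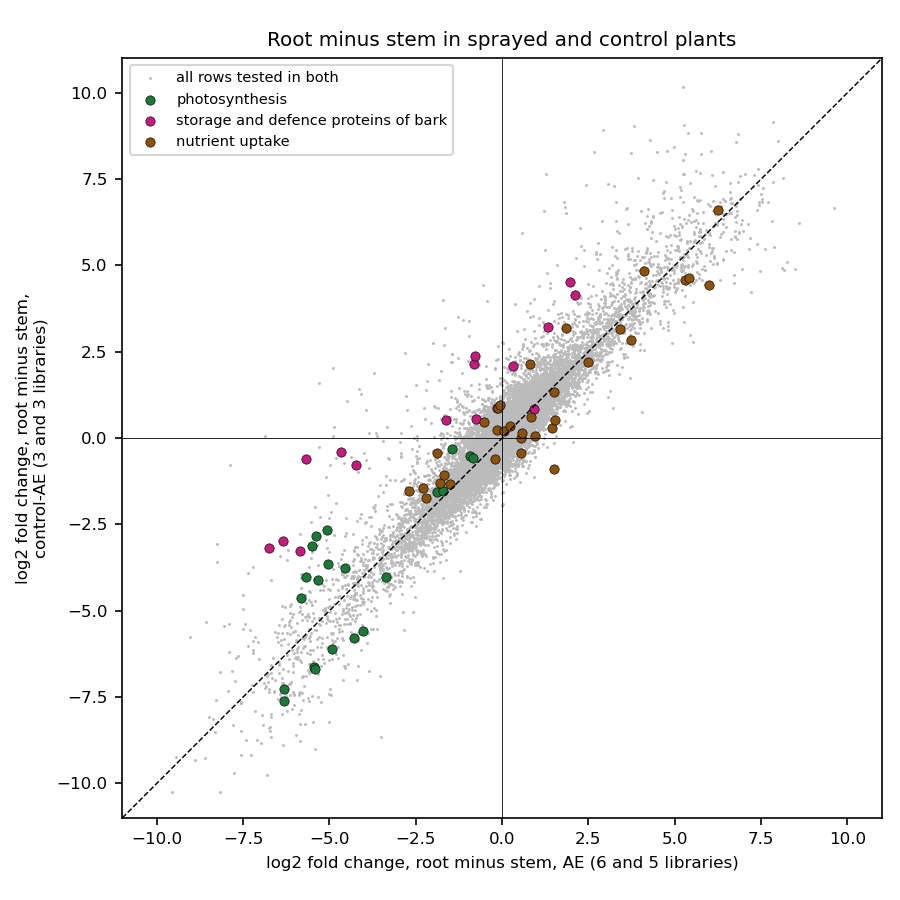
Log2 fold change (root minus stem) of each row tested in both treatments, AE on the horizontal axis (6 roots, 5 stems) and control-AE on the vertical axis (3 roots, 3 stems), with 3 lists in colour and a dashed line of equal values. The points follow the line with r = 0.93 over 23691 rows.

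Whether the tissue difference itself changed with the spray was tested as an interaction (AE minus control-AE) over 26431 rows. edgeR called 0 rows, its lowest adjusted p was 0.825, and 1413 rows (5.35%) had an unadjusted p under 0.05. DESeq2 called 12 rows, limma voom 0 and edgeR on the libraries labelled acceptable 0, and leaving out AE stem 6 gave 4 rows with edgeR. The set labelled acceptable takes in control-AE root 3, with 120199 counts, in place of root 2, with 7784687, and is a weak check. The median standard error of the difference was 0.36 on the log2 scale, so the absence of calls does not show that the treatments were alike. The row with the smallest p was thaumatin-like protein 1 (7467972), a defence-type protein, at -1.28 in AE-plants and 2.33 in control-AE plants, a difference of -3.61 ± 0.74 (unadjusted p = 0.00015, adjusted p = 0.83). The bark storage protein gene 18104338 gave -6.35 in AE-plants and -2.99 in control-AE plants (unadjusted p = 0.020, adjusted p = 0.89). Its control-AE roots 2, 4 and 5 held 25.7, 7.5 and 70.6 CPM, against 1.36 to 10.3 CPM in AE roots. How far control-AE root 5 carried the smaller control-AE value was not tested. Since the named rows were listed by a test on these AE and control-AE roots, small unadjusted p-values among them are not independent.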

How the data were processed

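The authors deposited 1 file per library with raw, whole-number counts of reads for each row, where a row is a gene model or transcript. Per the paper's methods, the reads were paired Illumina reads of polyadenylated RNA, trimmed and aligned to version v3.1.1 of the Populus trichocarpa genome from Phytozome, and the submitters' processing notes name FastQC, STAR, Subread and featureCounts. The rows carry NCBI gene and transcript identifiers rather than Phytozome names, and the annotation they come from and the strand setting are not given in the sources used here. No reference genome or sequence was used. Each file has 62007 rows, of which 20 (RFAM:RF02543) were dropped. AE stem 2, with 188201 counts, was left out of the comparison. No pair of replicates agreed within counting noise (lowest chi-square per degree of freedom 9.07).

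Groups came from the labels. Roots were compared with stems by the quasi-likelihood test of edgeR 4.0.16 (R 4.3.3) after TMM scaling. Rows passed filterByExpr at its limits of 10 counts and 15 in total, and p-values were adjusted after Benjamini and Hochberg, with calls at 0.05. Standard errors were taken as the size of the log2 fold change over the root of F. The interaction was fitted over the 4 groups jointly. Product names came from a supplementary table of the study, supplied in part (1998 rows, of which 1573 have a descriptive product name, reaching 2069 rows through their gene). The 20 lists are patterns on these names, and most hold only some of the genes of a pathway. Named were, per list and direction, up to 3 called rows with the largest fold change (mean of at least 5 CPM in the higher tissue), and the 10 named rows with the largest change in each direction (at least 10 CPM, groups not overlapping). Genes that the study names were added where a product name in the first rows of that supplementary table matched. Other list members are given as examples and were picked after their values were seen. The members, lists and tests were chosen with earlier results of these data known.

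Alternatives were DESeq2 1.42.0, the study's tool, limma 3.58.1 voom with quality weights, other scaling factors, no filter, the dropped rows kept, all 12 libraries, a fit with the replicate block, a joint fit, counts summed per gene, counts thinned to the lowest library, a fold limit, and the omission of single libraries. The other fits of the control-AE comparison and the ribosomal share without AE stem 5 were added after the data were seen. On simulated data edgeR called 75% of rows changed by a log2 of 1 and 98% of those changed by 2 in the AE comparison (24021 rows), 8% and 59% in the control-AE comparison (23645 rows), and 19% and 80% for the interaction (25786 rows). Each simulation changed only 100 rows by each size, all of them well counted. Far more rows were called between root and stem in the data, and recovery depends on that number. These shares therefore do not give the power of the tests made here. Python 3.11.15 was used with pandas 2.3.3 for tables, scipy 1.17.1 for permutation tests and matplotlib 3.10.9 for plots.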

Additional observations from a re-analysis of the deposited data

Results flagged for a closer look

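The share of counts on the ribosomal RNA rows in AE stem 5, 22.1%, lay far from the other 4 stems. Among the 226 sets of values examined for the named rows (1 per row and tissue), 23 had a highest or lowest library whose gap to the next, as a share of the range, passed Dixon's 95% critical value, 11 in roots and 12 in stems. For normally distributed values chance passes it in about 1 of 20 sets, a rate that was not measured here.

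In roots, replicate 5 was the highest for the LHCII type 1 protein (7493971, 13.3 CPM), the fatty acyl-CoA reductase (7479041, 55.6 CPM), vacuolar iron transporter homolog 2 (7492461, 3.57 CPM) and CONSTANS-LIKE 4 (7489168, 5.28 CPM), and the lowest for ESKIMO 1 (7494505, 12.7 CPM). Root replicate 3 was the highest for NRT1/PTR FAMILY 1.2 (18107474, 14.3 CPM), PIP1-4 (7487304, 2.67 CPM) and SBH1 (7463625, 4.93 CPM), and the lowest for SWEET3 (18105510, 7.07 CPM). Root replicate 4 was lowest for bark storage protein A (18100426, 9.79 CPM) and root replicate 6 highest for ERF034 (18105142, 24.5 CPM).

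In stems, replicate 3 was the highest for the bark storage proteins 18104339 (486 CPM), 18104338 (1325 CPM) and 18104336 (626 CPM) and the lowest for ECERIFERUM 3 (7461618, 16.2 CPM). Stem replicate 5 was the highest for PIP1-4 (47.2 CPM) and UVR8 (18107392, 42.1 CPM) and the lowest for WSD1 (7469553, 13.3 CPM). Stem replicate 1 was highest for GDSL esterase/lipase 5 (7483573, 15.2 CPM) and zeatin O-glucosyltransferase (7496123, 24.0 CPM), stem replicate 4 for NRT1/PTR FAMILY 1.2 (7470568, 246 CPM), and stem replicate 6 for SWEET3 (0.159 CPM) and AAA-ATPase ASD (18097389, 4.68 CPM).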

How the results depend on the processing

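With each library left out in turn, the AE comparison called 11050 to 13177 rows (5344 to 6696 higher and 5577 to 6481 lower in root), and the control-AE comparison 5267 to 7895. DESeq2 called 12657 rows in the AE comparison, voom 12863 and the fit with no filter 13452. A fold limit of log2 1 left 6104 rows (3143 higher, 2961 lower), and counts thinned to the lowest library left 4098 higher and 4462 lower in root with fewer rows tested (17991). With the ribosomal rows kept, 5699 were higher and 6516 lower. For the interaction, DESeq2 called 12 rows, and leaving out 1 library gave 0 to 4, with 4 only without AE stem 6. The ribosomal share difference was 0.0278 percentage points without AE stem 5. Libraries with the same replicate number did not deviate together (correlations 0.08, 0.01, 0.15, -0.13 and -0.11 for numbers 1, 3, 4, 5 and 6, with the best match at its own number only for 1 and 4). With the replicate block the AE comparison called 10475 rows and the interaction 0.

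Of the 111 called named rows, 106 stayed called in every alternative that tested them, the fold limit aside. These rows were chosen mainly as called rows with large fold changes in the same libraries. Their stability therefore does not speak for the called rows as a whole, for which it was not measured. The exceptions were cinnamyl alcohol dehydrogenase 9, TIP2-1 (block), kunitz trypsin inhibitor 2 (joint fit), gibberellin 2-beta-dioxygenase 1 (thinned counts) and UVR8 18107392 (block, joint fit and thinned counts). The uncalled polygalacturonase 7459926 turned sign with the ribosomal rows kept (-0.022), with all 12 libraries (-0.020), under voom (-0.13), with the replicate block (-0.61), summed per gene (-0.0051) and with thinned counts (-0.014), and lay between -0.46 and 0.41 with a library left out. Beta-amylase 1 (7494763) was 0.0028 with no filter, 0.048 under voom, and -0.15 to 0.054 with a library left out; the cause was not tested. Stems were shallower than roots, so rows low in stems are the least certain.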

Other observations

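Some rows were almost confined to a tissue in the AE libraries. With less than 0.1 CPM in every library of the other tissue and at least 1 CPM in every library of its own, 18 rows were found in root and 23 in stem, and with at least 10 CPM none was found in either. Non-coding and other RNA models were called less often than messenger RNA models, with 381 of 1046 (36.4%) against 11440 of 22574 (50.7%), and no test was made of this difference. Of 1008 genes with more than 1 tested row, 9 had rows called in both directions. Among them, glutamate dehydrogenase 1 (7469881), an enzyme of nitrogen metabolism, had a row at 5.89 to 15.3 CPM in roots and 2.06 to 2.73 CPM in stems (2.06 ± 0.25) and another at 0.207 to 1.29 CPM in roots and 0.476 to 2.37 CPM in stems (-1.40 ± 0.49). It was chosen after its values were seen.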
